A study of Caenorhabditis elegans with 36 samples.

Results

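The inducible cytosolic heat shock genes of Caenorhabditis elegans were followed here in whole worms given drugs or RNA interference that act on mitochondria or on lipid synthesis. They were taken by symbol: every row of the deposited count table whose identifier carries the name hsp-70, F44E5.4, F44E5.5, hsp-16.1, hsp-16.2, hsp-16.41, hsp-16.48, hsp-17 or unc-23. These 9 names belonged to 11 of the 27782 identifiers, since hsp-16.1 is carried by both T27E4.8 and T27E4.2, and hsp-16.48 by both T27E4.3 and T27E4.9. All 11 passed the filter on low counts in both batches. The genes were chosen with results of these same libraries known, but the rule names no comparison. They are taken here to have been selected on their lower counts under miglustat and BAY2402234 than under DMSO. Those comparisons are given as descriptions. Their calls are counted, but nothing is read from them. Whether values of the other groups bore on the choice is not known, so the tests given for them may not be independent of it.

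Heat shock genes of this kind encode chaperones that hold or refold damaged proteins in the cytosol. The transcription factor HSF-1 switches them on when misfolded proteins accumulate, and most are expressed little in unstressed adults. In the worm, hsp-16 reporters are long-standing markers of heat and proteotoxic stress. hsp-70, F44E5.4 and F44E5.5 encode Hsp70 proteins, which fold substrates in cycles of ATP hydrolysis. The hsp-16 genes and hsp-17 encode small heat shock proteins of the alpha-crystallin type, which keep unfolded proteins from aggregating. unc-23 encodes a BAG-family cochaperone that acts on Hsp70 and is needed for muscle attachment.

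RNA was sequenced from wild-type N2 worms, about 3000 worms per sample, kept at 20 °C in all groups. The worms met the compounds as newly hatched larvae and were harvested as day 1 adults. The 36 libraries fall into 9 groups, each of 4 biological replicates, in 2 batches. Batch 1 held terbinafine at 31.5 µM, an antifungal inhibitor of squalene epoxidase; miglustat at 250 µM, an iminosugar inhibitor of glucosylceramide synthase; BAY2402234 and brequinar, each at 500 µM; dhod-1 RNAi with DMSO; and DMSO, the solvent control. Batch 2 held doxycycline at 50 µM, an antibiotic that also blocks mitochondrial translation; teriflunomide at 250 µM; and its own DMSO control. BAY2402234, brequinar and teriflunomide inhibit dihydroorotate dehydrogenase, the product of dhod-1, which makes pyrimidine precursors in mitochondria. Worms of all groups, controls included, ate HT115 bacteria carrying an RNAi plasmid, on plates with IPTG, carbenicillin and 10 µM 5-fluorouracil, a thymidylate synthase inhibitor. The plasmid was the empty vector everywhere except in the dhod-1 RNAi group.

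Each library held between 19253276 and 20455600 counts. Levels are given as CPM, a gene's count scaled by the total count of its library, and differences on the log2 scale, with a standard error (SE), from edgeR's quasi-likelihood fit. A gene is said to have risen or fallen only where its edgeR adjusted p, corrected over all genes tested, was below 0.05. Under dhod-1 RNAi the dhod-1 transcript itself ranged from 56.2 to 79.5 CPM, against 77.3 to 86.2 CPM in batch 1 DMSO, so the ranges overlapped. It passed at -0.28 on the log2 scale (SE 0.08, edgeR adjusted p = 0.00482). It was also lower under BAY2402234 (-0.44) and doxycycline (-0.60), where no RNAi was given. Marker genes of other tissues differed most in the doxycycline libraries, where 10 oocyte and germ line genes made up 0.0766% of counts, against 0.901% in the batch 2 DMSO libraries. The dhod-1 RNAi replicates 3 and 4 stood apart from replicates 1 and 2 in markers of the germ line (0.641% and 0.466%, against 0.955% and 1.00%) and of the larval molt (0.0679% and 0.0773%, against 0.037% and 0.0374%).

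By position, 8 of the 11 rows form 4 divergent pairs, head to head on opposite strands (build WBcel235). hsp-16.2 (chromosome V, 1804334 to 1804957) and hsp-16.41 (chromosome V, 1805178 to 1805875) have 220 bases between them. A second cluster on chromosome V holds T27E4.8 (9087293 to 9087782) beside T27E4.3 (9088131 to 9088617), with 348 bases between, and T27E4.9 (9089280 to 9089766) beside T27E4.2 (9090077 to 9090604), with 310 bases between. F44E5.4 (11757107 to 11759311) and F44E5.5 (11759662 to 11761861) lie on chromosome II with 350 bases between them. hsp-17 (8384799 to 8385929) and unc-23 (8936359 to 8939684) are single genes on chromosome V, and hsp-70 lies on chromosome I within an intron of uggt-2, on the opposite strand and with no shared exon. The copies in the T27E4 cluster are known to be near-identical, as are F44E5.4 and F44E5.5, so how reads were divided among them is uncertain.

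The 11 rows differed widely in level. Per kilobase of exon, hsp-16.48 (T27E4.3) was the highest in the batch 1 DMSO libraries at 127 CPM per kilobase. hsp-17 followed at 45.4, hsp-16.2 at 42.9 and hsp-16.41 at 29.6 CPM per kilobase. hsp-70 and unc-23 stood at 15.6 and 14.6 CPM per kilobase, and the remaining rows, among them F44E5.4 and F44E5.5, between 1.41 and 2.91. The 2 rows named hsp-16.48 thus differed in counts, and the ratio of T27E4.3 to T27E4.9 counts had a median of 53.2 over the 36 libraries. Since the division of reads among the T27E4 copies is uncertain, their levels and this ratio may partly reflect it, which was not tested. The lowest rows rested on few counts: T27E4.9 had 15 counts in all over the 4 miglustat libraries.

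Summed over the 11 rows, the heat shock genes took 314 ± 77.3 CPM under terbinafine, 48.9 ± 18.9 CPM under miglustat, 50.1 ± 13.8 CPM under BAY2402234, 242 ± 29.4 CPM under brequinar, 251 ± 75.8 CPM under dhod-1 RNAi and 199 ± 81.3 CPM under batch 1 DMSO (SD, n = 4 each). In batch 2 the sum was 434 ± 65.5 CPM under doxycycline, 559 ± 139 CPM under teriflunomide and 215 ± 68.2 CPM under DMSO (SD, n = 4 each). The miglustat and BAY2402234 groups were the low end of batch 1. In these bulk samples, fewer cells that express a gene and less RNA of it per cell cannot be told apart.

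**Figure D1:**
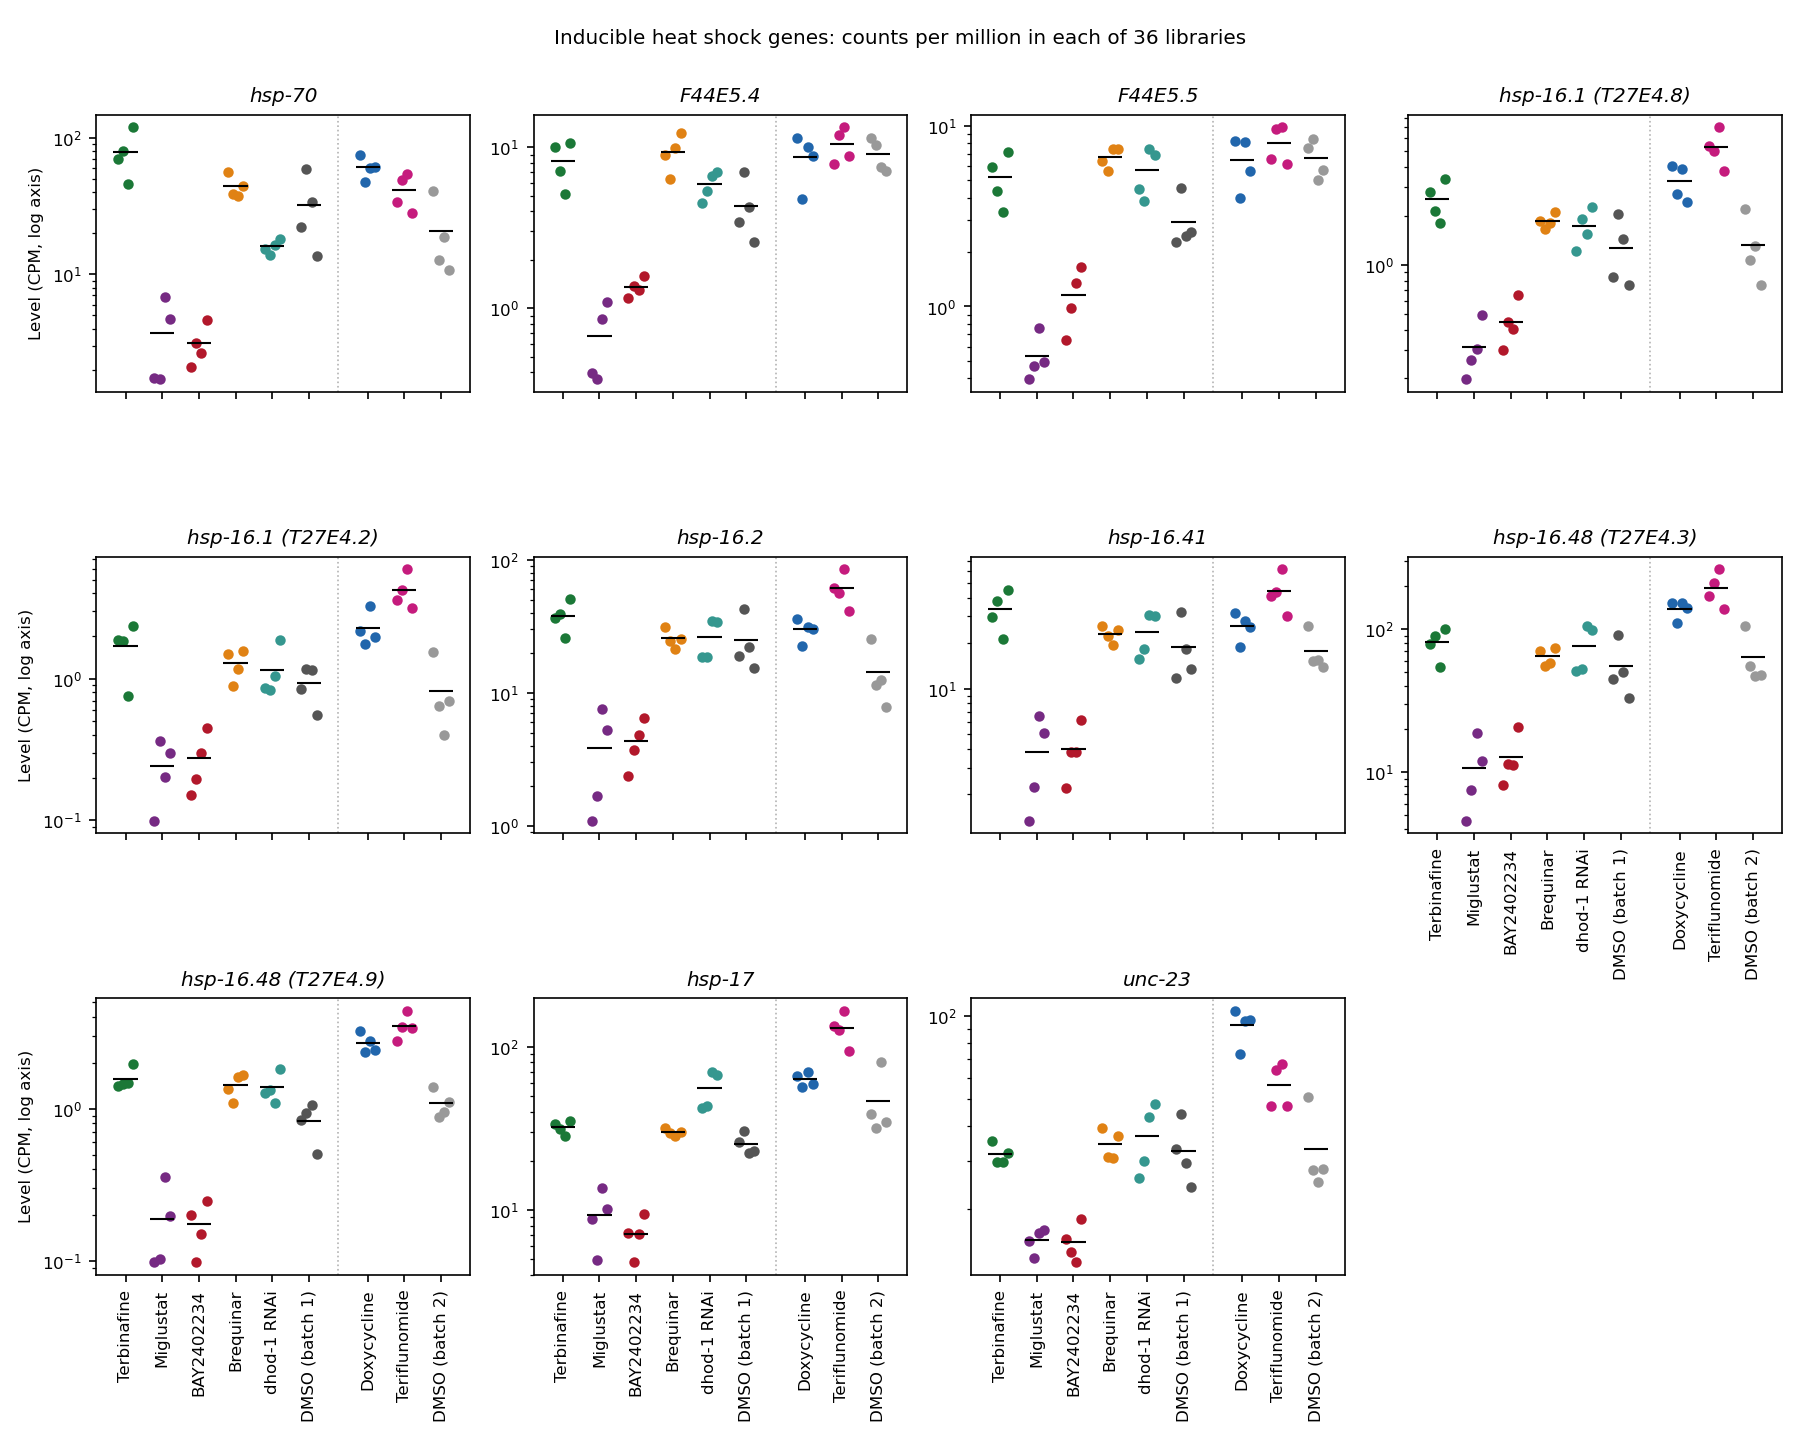
Level of each of the 11 heat shock rows in every library, in CPM on a log axis; points are libraries (4 per group), black lines are group means, and batch 1 and batch 2 are separated. The miglustat and BAY2402234 points lie low in every panel, while the teriflunomide points of the small heat shock genes lie high in batch 2.

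Miglustat libraries held little hsp-70: 1.74, 1.71, 6.84 and 4.69 CPM, against 22.2, 58.9, 33.7 and 13.5 CPM in batch 1 DMSO libraries. BAY2402234 libraries held 2.11, 3.15, 2.65 and 4.64 CPM. Every miglustat and BAY2402234 library lay below every DMSO library. The hsp-70 log2 differences from DMSO were -3.09 (SE 0.44) under miglustat and -3.52 (SE 0.45) under BAY2402234, which leave 11.8% and 8.7% of the DMSO level.

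The other members lay on the same side of DMSO in both groups. The F44E5 genes differed by -2.66 and -2.47 under miglustat and by -1.84 and -1.51 under BAY2402234. The 6 hsp-16 rows lay between -2.67 and -1.94 under miglustat and between -2.68 and -1.66 under BAY2402234. hsp-17 and unc-23 differed least under miglustat, by -1.43 and -1.08, while under BAY2402234 unc-23 differed by -1.27, and hsp-17 lay at 4.77 to 9.42 CPM, against 22.2 to 30.5 CPM under DMSO. All 11 rows were below DMSO at an edgeR adjusted p under 0.05 in both comparisons; of all genes tested, 0.145% were lower by that rule under miglustat and 23.6% under BAY2402234, and 0.436% and 23.2% were higher. These counts belong to the comparisons taken to have picked the genes. The choice alone would make the number of lower rows high, whatever the share of all genes, and nothing is read from it. Intestine markers made up 0.606% of counts under BAY2402234 and 0.308% under DMSO, and their part in the result was not tested. Fitted on the miglustat and DMSO libraries alone, 3 of the 11 rows passed.

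Between miglustat and BAY2402234 the neighbours in level mostly overlapped. In order of median, hsp-70 stood lowest under BAY2402234 and next under miglustat, dhod-1 RNAi, batch 1 DMSO, brequinar and terbinafine, and of these neighbours only miglustat and dhod-1 RNAi had separate ranges. F44E5.4 was the exception in the low pair, at 0.364 to 1.09 CPM under miglustat and 1.15 to 1.59 CPM under BAY2402234.

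Terbinafine libraries had the highest hsp-70 level of batch 1. hsp-70 stood at 69.2, 79.2, 46.1 and 119 CPM in terbinafine libraries, against 22.2, 58.9, 33.7 and 13.5 CPM in DMSO libraries. The groups overlapped, because DMSO replicate 2 lay above terbinafine replicate 3. The log2 fold change was 1.28 (SE 0.38), with an edgeR adjusted p of 0.153. These DMSO libraries are shared with the miglustat and BAY2402234 comparisons, which also holds for brequinar and dhod-1 RNAi.

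None of the 11 rows rose (0.68% of all genes did) or fell (0.218%) under terbinafine by edgeR. DESeq2 also called 0, and 7 rows were higher at an unadjusted p below 0.05, as were 8.51% of all genes. F44E5.4 differed by 0.92 (SE 0.29, edgeR adjusted p = 0.179) and hsp-16.1 (T27E4.8) by 0.98 (SE 0.29, edgeR adjusted p = 0.141). The median log2 fold change over the 11 rows was 0.82, beside 0.01 over all genes, with unc-23 lowest at -0.05. DMSO replicate 2 carried the most hsp-70, hsp-16.2 and unc-23 of its group. Without it hsp-70 differed by 1.75, F44E5.4 by 1.26 and T27E4.8 by 1.31, and these 3 rows passed (edgeR adjusted p = 0.0368, 0.0449 and 0.0423).

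Brequinar raised the pair of F44E5 genes. F44E5.5 stood at 6.41, 5.61, 7.48 and 7.46 CPM in brequinar libraries, against 2.27, 4.50, 2.45 and 2.57 CPM in DMSO libraries, with no overlap. F44E5.4 stood at 8.96, 6.34, 9.92 and 12.26 CPM in brequinar libraries, against 3.45, 7.05, 4.24 and 2.57 CPM in DMSO libraries, and here DMSO replicate 2 lay above brequinar replicate 2. The log2 fold changes were 1.18 (SE 0.27, edgeR adjusted p = 0.00532) for F44E5.5 and 1.10 (SE 0.29, edgeR adjusted p = 0.0133) for F44E5.4.

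These were 2 rows higher, where 5.03% of all genes rose, and 0 rows fell, where 10.6% of all genes did. Tissue markers lay apart without overlap: intestine markers at 0.142% to 0.197% of counts under brequinar and 0.271% to 0.357% under DMSO, and muscle markers at 0.504% to 0.558% and 0.688% to 0.85%. Yolk genes took 6.34% to 7.13% under brequinar and 8.15% to 8.74% under DMSO, and the part of these markers in the result was not tested. With the reads of both F44E5 genes summed, the rise was 1.11 (SE 0.27, edgeR adjusted p = 0.00766). The other Hsp70 gene, hsp-70, differed by 0.45 (SE 0.38, edgeR adjusted p = 0.438), and of the small heat shock rows T27E4.9 came nearest, at 0.77 (SE 0.28, edgeR adjusted p = 0.0671). The call on F44E5.4 was lost without brequinar replicate 4 (0.95, edgeR adjusted p = 0.0564), DMSO replicate 1 (0.99, edgeR adjusted p = 0.0617) or DMSO replicate 4 (0.91, edgeR adjusted p = 0.0511).

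BAY2402234 and brequinar were given at the same dose, and their hsp-70 ranges, 2.11 to 4.64 CPM and 37.6 to 56.3 CPM, did not overlap. F44E5.5 ranged from 0.652 to 1.64 CPM under BAY2402234 and from 5.61 to 7.48 CPM under brequinar. The BAY2402234 values are taken to have picked the genes, so no test of this difference is given.

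In the dhod-1 RNAi group hsp-17 rose and hsp-70 fell. hsp-17 stood at 42.0, 43.0, 69.6 and 67.0 CPM with dhod-1 RNAi, against 26.0, 30.5, 22.2 and 23.1 CPM in DMSO libraries, with no overlap. It rose by 1.02 (SE 0.21, edgeR adjusted p = 0.00031). hsp-70 stood at 15.4, 13.8, 16.51 and 18.2 CPM in dhod-1 RNAi libraries, within the wide DMSO range of 13.5 to 58.9 CPM.

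hsp-70 fell, at -1.10 on the log2 scale (SE 0.39, edgeR adjusted p = 0.0206), a call lost without DMSO replicate 2 (-0.64, edgeR adjusted p = 0.149). F44E5.5 rose by 0.84 (SE 0.27, edgeR adjusted p = 0.0108), while F44E5.4 differed by 0.35 (SE 0.29, edgeR adjusted p = 0.307) and their summed reads by 0.62 (edgeR adjusted p = 0.0515). These 2 rises and 1 fall stand beside 31.3% of all genes that rose and 30.1% that fell, so the share of members called did not exceed that of genes in general.

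Replicates 3 and 4 of dhod-1 RNAi were the high ones for hsp-17, hsp-16.2 (34.7 and 34.2 CPM, against 18.7 and 18.5 CPM in replicates 1 and 2) and hsp-16.48 (T27E4.3; 105 and 97.7 CPM, against 50.99 and 52.4 CPM). The same libraries stood apart in germ line and molt markers, as given above, whose part in the result was not tested. Without them 1 row was called, F44E5.5 differed by 0.46 (edgeR adjusted p = 0.269) and hsp-70 by -1.17 (edgeR adjusted p = 0.107). All 4 dhod-1 RNAi libraries lay apart from batch 1 DMSO in molt markers, at 0.037% to 0.0773% of counts against 0.00592% to 0.0098%. Yolk genes took 11.7% to 15.05% under dhod-1 RNAi and 8.15% to 8.74% under DMSO, and muscle markers 0.437% to 0.546% and 0.688% to 0.85%. The part of these group differences in the result was not tested. hsp-17 overlaps a gene on the opposite strand, F52E1.14, by 73 bases of exon. F52E1.14 rose by 1.00 under dhod-1 RNAi (edgeR adjusted p = 8.58e-06). Like hsp-17, it was lower under terbinafine (-0.98) and brequinar (-1.25) than under dhod-1 RNAi. F52E1.14 also rose under BAY2402234 (1.26), where hsp-17 lay below DMSO, and under doxycycline (1.38), where hsp-17 did not pass. Under teriflunomide, where hsp-17 rose by 1.55, F52E1.14 differed by -0.27 (edgeR adjusted p = 0.301). Whether counting used strand is not given in the sources used here, and the part of this overlap in the result was not tested.

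**Figure D2:**
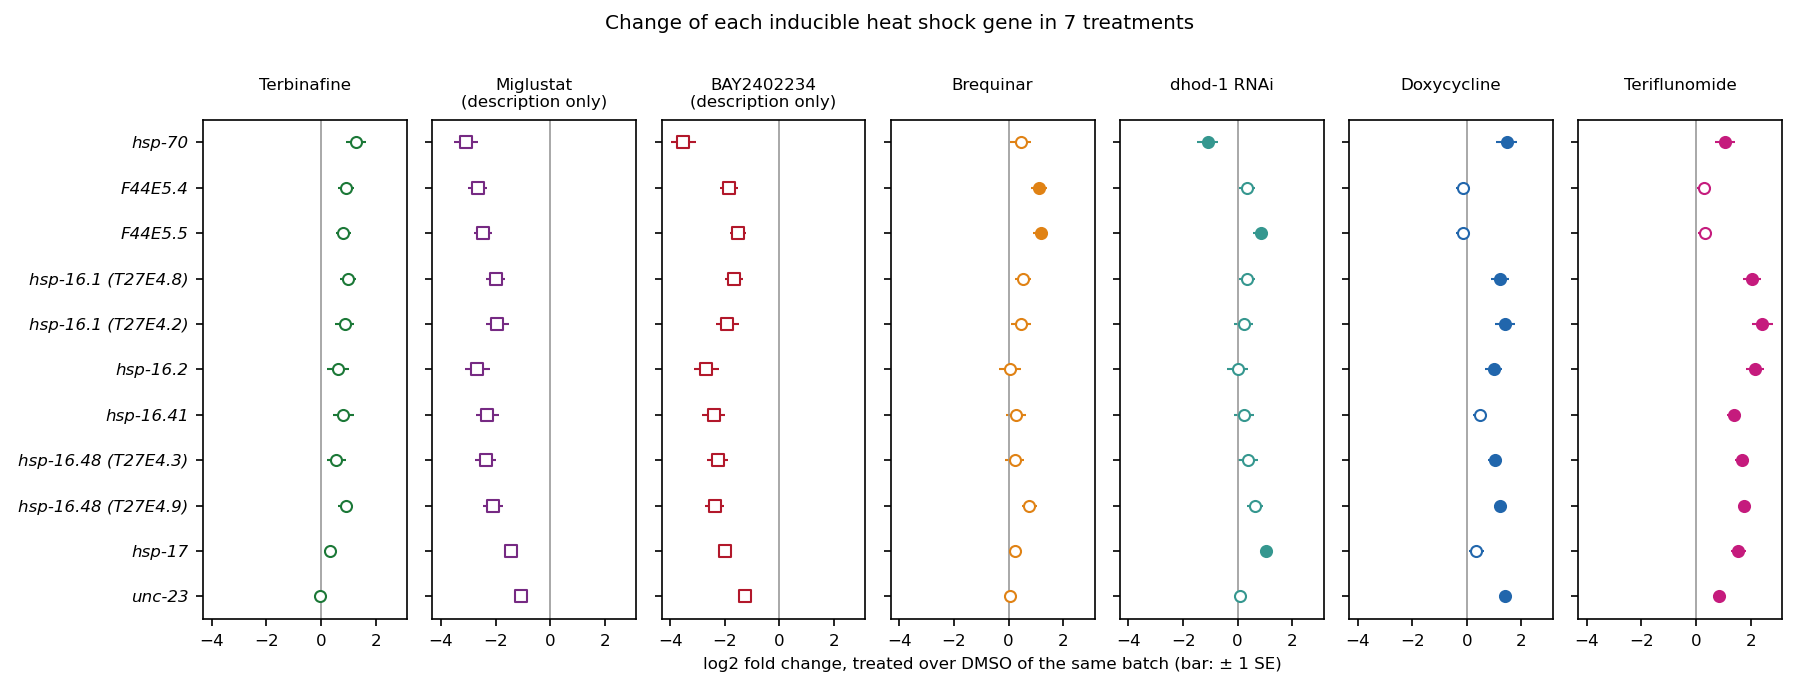
Log2 fold change of the 11 heat shock rows for each of the 7 treatments against the DMSO libraries of its batch, with bars of 1 SE; filled circles mark an edgeR adjusted p below 0.05, open circles the others, and squares the miglustat and BAY2402234 values, given as a description. Both F44E5 genes rose under brequinar, and neither passed under doxycycline or teriflunomide, where 7 and 9 of the other rows rose.

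In comparisons among treated groups the fold changes set aside the DMSO, miglustat and BAY2402234 libraries, which still entered the filter, the scaling and the shared estimate of spread. hsp-70 was higher under terbinafine than under dhod-1 RNAi, at 46.1 to 119 CPM against 13.8 to 18.2 CPM, a rise of 2.38 (SE 0.40, edgeR adjusted p = 4.6e-05). hsp-70 was also higher under brequinar than under dhod-1 RNAi, at 37.6 to 56.3 CPM against 13.8 to 18.2 CPM, by 1.55 (SE 0.39, edgeR adjusted p = 0.00187). Neither pair of ranges overlapped.

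hsp-17 went the other way. It was lower under terbinafine than under dhod-1 RNAi by -0.69 (SE 0.21, edgeR adjusted p = 0.00634) and lower under brequinar than under dhod-1 RNAi by -0.80 (SE 0.21, edgeR adjusted p = 0.00204). F44E5.4 was higher under brequinar than under dhod-1 RNAi by 0.75 (SE 0.29, edgeR adjusted p = 0.0261), a call lost without brequinar replicate 4 or dhod-1 RNAi replicate 1 or 2 (edgeR adjusted p = 0.0908, 0.0655 and 0.0518).

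For terbinafine against dhod-1 RNAi the calls were 1 higher and 1 lower row, beside 33.6% and 30.7% of all genes. For brequinar against dhod-1 RNAi they were 2 higher and 1 lower, beside 27.9% and 36.4%. Without dhod-1 RNAi replicates 3 and 4, each comparison had 1 call, and hsp-17 passed in neither (-0.38, edgeR adjusted p = 0.228, for terbinafine, and -0.49, edgeR adjusted p = 0.125, for brequinar). Leaving out terbinafine replicate 3 gave 5 calls against dhod-1 RNAi, and leaving out dhod-1 RNAi replicate 4 gave 4. Between terbinafine and brequinar no row passed by edgeR or DESeq2 (0 higher beside 21.5% of all genes and 0 lower beside 11.6%). hsp-70 was the only row with an unadjusted p below 0.05 there, at 0.83 (SE 0.38, edgeR adjusted p = 0.0985).

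The batch 2 libraries are separate from those of the miglustat and BAY2402234 comparisons, and whether they bore on the choice of genes is not known. Teriflunomide raised the members of the small heat shock class. hsp-16.2 stood at 61.2, 56.3, 85.1 and 41.5 CPM in teriflunomide libraries, against 25.4, 11.5, 12.5 and 7.85 CPM in DMSO libraries. hsp-17 stood at 134, 127, 166 and 93.4 CPM in teriflunomide libraries, against 38.7, 31.8, 80.3 and 34.5 CPM in DMSO libraries. For both genes every teriflunomide library lay above every DMSO library, and DMSO replicate 1 (hsp-16.2) or 3 (hsp-17) was the highest of its group.

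The log2 fold changes were 2.16 (SE 0.33, edgeR adjusted p = 0.000486) for hsp-16.2 and 1.55 (SE 0.28, edgeR adjusted p = 0.00154) for hsp-17. hsp-16.41, the divergent partner of hsp-16.2, rose by 1.39 (SE 0.25, edgeR adjusted p = 0.00114), at 30.3 to 61.7 CPM against 14.0 to 26.0 CPM. In the T27E4 cluster the hsp-16.1 rows rose by 2.06 (T27E4.8) and 2.43 (T27E4.2) and the hsp-16.48 rows by 1.68 (T27E4.3) and 1.76 (T27E4.9). With rows of related genes summed, whatever their locus, the rise was 2.17 for the hsp-16.1 and hsp-16.2 rows and 1.63 for the hsp-16.41 and hsp-16.48 rows (edgeR adjusted p = 0.000437 and 0.000628).

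The cochaperone gene unc-23 rose by 0.85 (SE 0.22, edgeR adjusted p = 0.0098), and its ranges, 47.2 to 66.9 CPM under teriflunomide and 25.0 to 51.03 CPM under DMSO, overlapped through DMSO replicate 1. Of the Hsp70 genes, hsp-70 stood at 34.1, 48.9, 54.4 and 28.1 CPM in teriflunomide libraries, against 40.4, 12.7, 18.9 and 10.8 CPM in DMSO libraries. Its groups overlapped, and its rise of 1.07 (SE 0.38, edgeR adjusted p = 0.0447) was lost in 6 of the 8 fits that leave out a library. The exceptions were the fits without teriflunomide replicate 4 and without DMSO replicate 1, and over all 8 the edgeR adjusted p ran from 0.000415 to 0.116. The call was also lost with DESeq2 size factors in edgeR (edgeR adjusted p = 0.0503), with no filter on low counts (0.0847), with a stricter filter of 10 CPM in 4 libraries (0.0504) and with only the 2 groups fitted (0.0909).

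F44E5.4 differed by 0.28 (SE 0.26, edgeR adjusted p = 0.393), and F44E5.5 by 0.34 (SE 0.25, edgeR adjusted p = 0.298), so neither passed. F44E5.4 stood at 7.93 to 13.3 CPM under teriflunomide and 7.15 to 11.4 CPM under DMSO. In all, 9 of the 11 rows rose under teriflunomide, beside 19% of all genes, and 0 fell, beside 19.7%. The median over the 11 rows was 1.55, beside -0.02 over all genes. Muscle markers made up 1.27% of counts under teriflunomide and 0.727% under DMSO, and molt markers 0.00667% and 0.0473%, while batch 1 DMSO held 0.00756% molt markers. Yolk genes took 3.03% to 3.87% under teriflunomide and 5.83% to 6.855% under DMSO, and intestine markers 0.614% to 0.665% and 0.317% to 0.532%. Embryo markers took 0.0101% to 0.0118% and 0.0147% to 0.023%, and sperm markers 0.0481% to 0.0665% and 0.00807% to 0.0644%. The part of these markers in the result was not tested.

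Doxycycline raised hsp-70, unc-23 and most hsp-16 rows. hsp-70 stood at 74.6, 47.0, 60.1 and 61.3 CPM in doxycycline libraries, against 40.4, 12.7, 18.9 and 10.8 CPM in DMSO libraries. unc-23 stood at 105, 72.9, 95.8 and 97.05 CPM in doxycycline libraries, against 51.03, 27.8, 25.0 and 27.97 CPM in DMSO libraries. Neither pair of groups overlapped, and DMSO replicate 1 was the highest control for both genes.

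The log2 fold changes were 1.46 (SE 0.38, edgeR adjusted p = 0.00384) for hsp-70 and 1.41 (SE 0.22, edgeR adjusted p = 8.55e-05) for unc-23. The hsp-16.1 rows rose by 1.21 (T27E4.8) and 1.39 (T27E4.2), the hsp-16.48 rows by 1.03 (T27E4.3) and 1.22 (T27E4.9), and hsp-16.2 by 0.98 (SE 0.32, edgeR adjusted p = 0.0144). hsp-16.48 (T27E4.3) stood at 109 to 152 CPM under doxycycline and 47.3 to 105 CPM under DMSO, without overlap.

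hsp-16.41 missed the threshold at 0.46 (SE 0.24, edgeR adjusted p = 0.0925). hsp-17 did so at 0.35 (SE 0.28, edgeR adjusted p = 0.256), as did F44E5.4 (-0.15, edgeR adjusted p = 0.594) and F44E5.5 (-0.13, edgeR adjusted p = 0.652). Without DMSO replicate 1, at 26.0 CPM the highest for hsp-16.41, that gene passed at 0.71 (edgeR adjusted p = 0.00729). Without DMSO replicate 3, at 80.3 CPM the highest for hsp-17, that gene passed at 0.77 (edgeR adjusted p = 0.000997). With the replicate number as a block hsp-16.41 passed as well, at 0.49 (edgeR adjusted p = 0.0479). The filter on low counts bore on both: with the stricter filter hsp-16.41 stood at 0.89 (edgeR adjusted p = 0.00678) and hsp-17 at 0.79 (edgeR adjusted p = 0.0185). That filter moved the whole scale, since the genes in both fits shifted by a median of 0.43 for doxycycline against DMSO.

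Under doxycycline 7 of the 11 rows rose, beside 44.8% of all genes, and 0 fell, beside 40.2%. The median over the 11 rows was 1.03, beside 0.23 over all genes, and the median of all genes was 0.12 with DESeq2 size factors. Muscle markers took 2.67% of counts under doxycycline and 0.727% under DMSO, and oocyte and germ line markers 0.0766% and 0.901%. Sperm markers took 0.046% to 0.079% under doxycycline and 0.00807% to 0.0644% under DMSO, where replicate 1 was the highest. The part of these markers in the result was not tested. uggt-2, whose intron holds hsp-70, rose by 2.31 under doxycycline (edgeR adjusted p = 0.000337), at 11.8 to 14.1 CPM against 0.898 to 5.18 CPM under DMSO.

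Set against teriflunomide directly, doxycycline gave lower hsp-17, hsp-16.2 and hsp-16.41, and these 3 calls held whichever library was left out. hsp-17 ranged from 56.8 to 69.5 CPM under doxycycline and from 93.4 to 166 CPM under teriflunomide, a log2 difference of -1.20 (SE 0.28, edgeR adjusted p = 0.00251). hsp-16.2 ranged from 22.6 to 36.1 CPM under doxycycline and from 41.5 to 85.1 CPM under teriflunomide, a difference of -1.18 (SE 0.32, edgeR adjusted p = 0.00585). Neither pair of ranges overlapped.

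hsp-16.41 differed by -0.93, T27E4.8 by -0.85, T27E4.2 by -1.04, T27E4.3 by -0.65 and T27E4.9 by -0.53. unc-23 was higher by 0.56 (SE 0.21, edgeR adjusted p = 0.0336), at 72.9 to 105 CPM against 47.2 to 66.9 CPM. hsp-70 differed by 0.40 (SE 0.37, edgeR adjusted p = 0.342). These 7 lower rows and 1 higher row stand beside 37.9% and 36.3% of all genes, and the median over all genes was 0.22. Of the 8 fits that leave out a library, unc-23 lost its call in 5, T27E4.3 in 6, T27E4.9 in 4, T27E4.8 in 3 and T27E4.2 in 2. The number of calls was 4 without doxycycline replicate 2 or 4 or teriflunomide replicate 3, and 5 without doxycycline replicate 3. With the replicate number as a block unc-23 (edgeR adjusted p = 0.0519) and T27E4.9 (0.0612) did not pass, and without the filter unc-23 (0.0945) and T27E4.3 (0.0584) did not. The stricter filter shifted all differences by a median of 0.42. With it hsp-16.2 (-0.76, edgeR adjusted p = 0.0507), hsp-16.41 (-0.51, edgeR adjusted p = 0.0835) and T27E4.3 (-0.23, edgeR adjusted p = 0.455) no longer passed, while hsp-17 (-0.78, edgeR adjusted p = 0.0207) and unc-23 (0.98, edgeR adjusted p = 0.0021) did. Doses of the compounds differed (50 µM doxycycline and 250 µM teriflunomide).

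Ratios within a library describe how the members moved relative to each other. The summed hsp-16 counts over the summed F44E5 counts averaged 7.49 ± 1.46 under brequinar, 11.1 ± 1.26 under dhod-1 RNAi and 13.7 ± 1.01 under batch 1 DMSO (SD, n = 4 each). In batch 2 this ratio averaged 14.0 ± 2.88 under doxycycline, 16.9 ± 2.51 under teriflunomide and 6.21 ± 1.71 under DMSO (SD, n = 4 each). Each of these 4 treated groups lay wholly to one side of its DMSO group. The ratio was lower than in DMSO for brequinar and dhod-1 RNAi and higher for doxycycline and teriflunomide.

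hsp-70 over the summed F44E5 counts averaged 1.42 ± 0.239 under dhod-1 RNAi and 4.16 ± 1.17 under batch 1 DMSO, and 4.19 ± 0.88 under doxycycline and 1.29 ± 0.666 under batch 2 DMSO (SD, n = 4 each). For the divergent pair, the ratio of hsp-16.2 to hsp-16.41 was 1.296 to 1.49 under teriflunomide, 1.11 to 1.21 under doxycycline and 0.561 to 0.975 under batch 2 DMSO. None of 20 such ratio comparisons passed after adjustment. The smallest p that an exact two-sided permutation test allows with 4 against 4 libraries is 0.0286, which became 0.0635 after Benjamini-Hochberg adjustment. The ratios were chosen after the values had been seen.

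**Figure D3:**
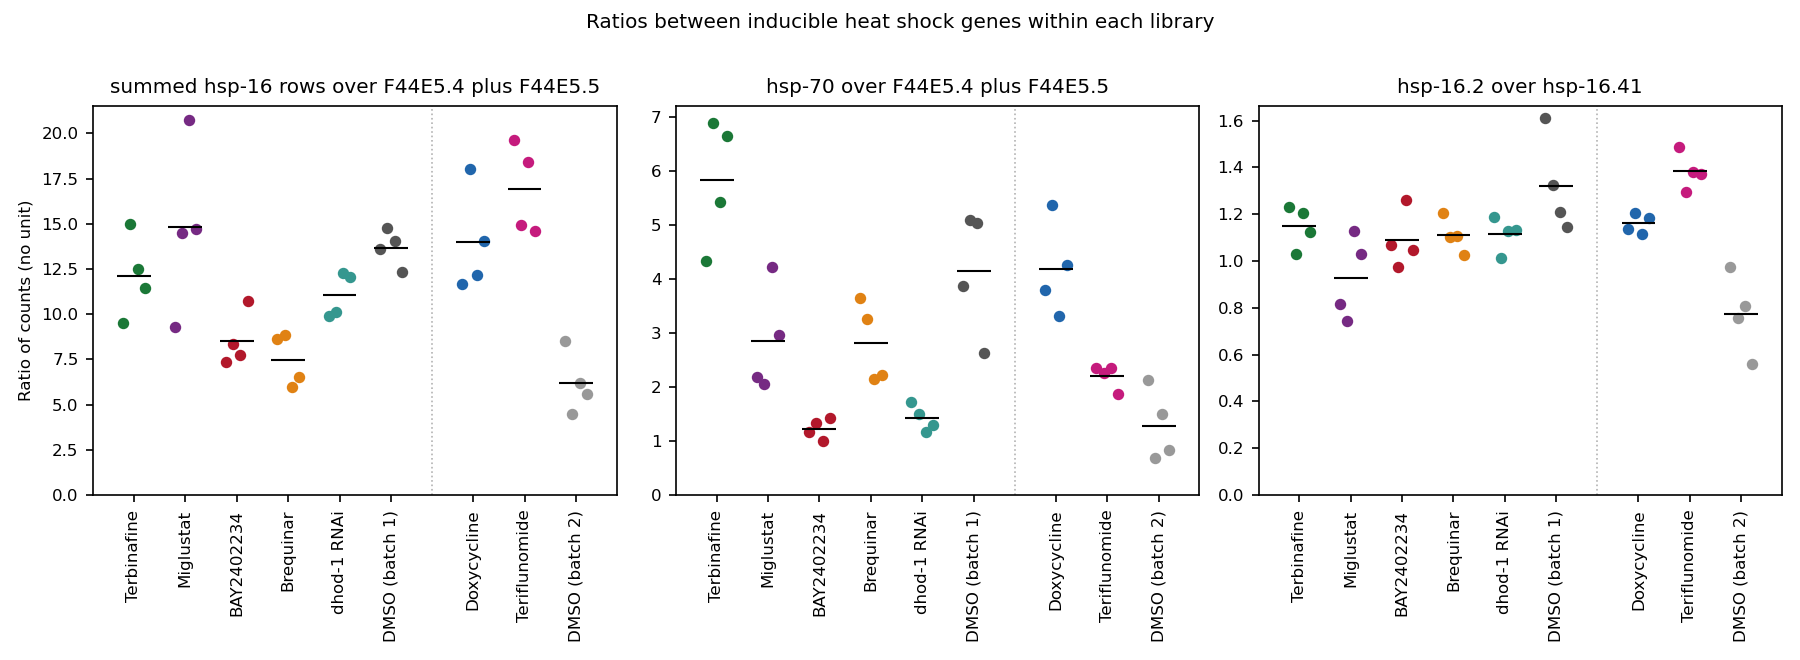
Ratios of counts in every library, on linear axes from 0: summed hsp-16 rows over F44E5.4 plus F44E5.5, hsp-70 over F44E5.4 plus F44E5.5, and hsp-16.2 over hsp-16.41; points are libraries (4 per group) and lines are group means. The first ratio lies below its DMSO group in all 4 brequinar libraries and above it in all 8 doxycycline and teriflunomide libraries.

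Within groups the members varied together. After each group's mean was removed from log2 CPM, Pearson's r over the 36 libraries ran from 0.11 to 0.963 across the 55 pairs of rows, with a median of 0.657. The highest was between the divergent partners hsp-16.2 and hsp-16.41 (0.963), followed by hsp-16.41 and hsp-16.48 (T27E4.3; 0.957). hsp-70 and hsp-16.2, on different chromosomes, had an r of 0.908. The lowest was between hsp-17 and T27E4.2 (0.11). Without removing group means, r lay between 0.747 and 0.984. Rows of a library share its depth and its worms, and similar copies can share reads. No value for gene pairs in general is given, so these values do not show a trait particular to the members.

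**Figure D4:**
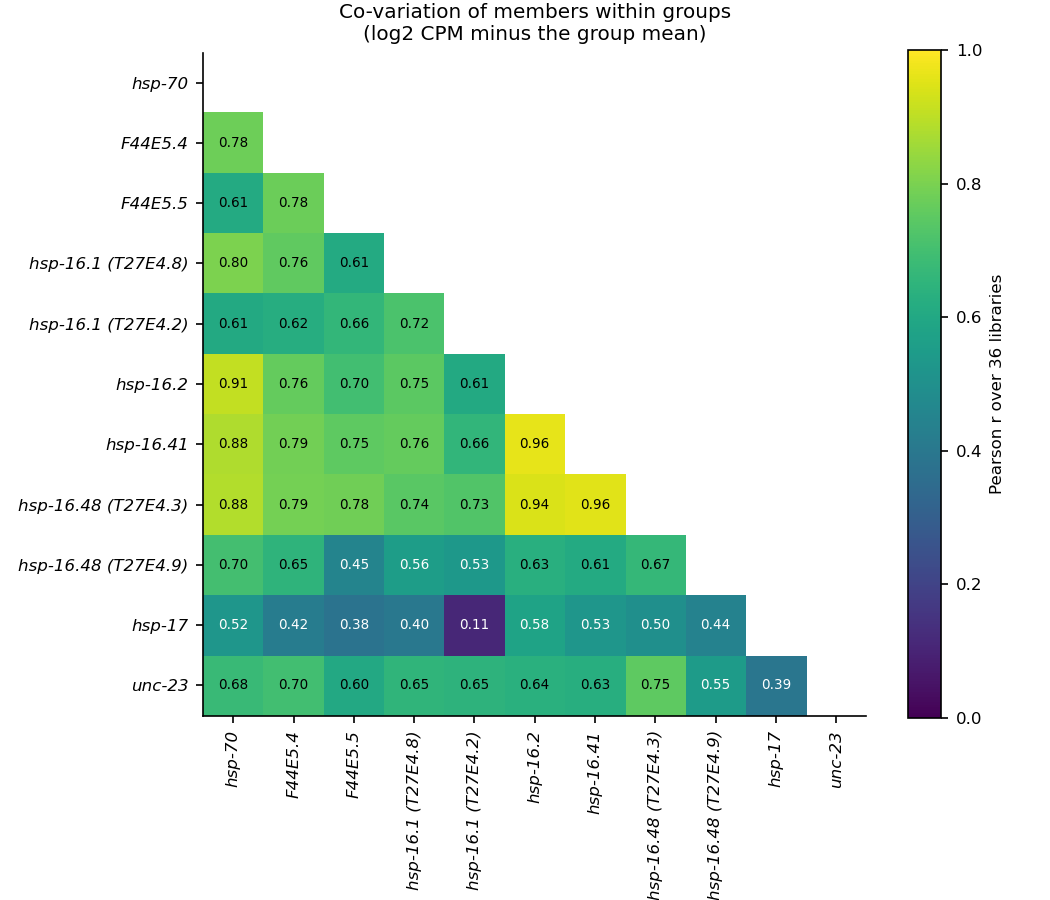
Pearson's r between the 11 heat shock rows over the 36 libraries, computed on log2 CPM after each group's mean was removed; each cell is a pair of rows. The hsp-16 rows of high level and hsp-70 form the block of highest values, up to 0.963 for hsp-16.2 and hsp-16.41, and hsp-17 with T27E4.2 is the lowest at 0.11.

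Among 13874 genes compared over the 36 libraries, those most like the members' average were ranked, with no p. Within groups these were lact-4 (r = 0.755), F22E5.1 (0.75), F19B2.5 (0.74), nhr-137 (0.737), cysl-2 (0.684) and Y94H6A.10 (0.681). On log2 CPM with group differences kept, they were Y94H6A.10 (0.917), F19B2.5 (0.904), lact-4 (0.864), Y41C4A.12 (0.85), F18E3.13 (0.812) and mxl-3 (0.811). Y94H6A.10 averaged 167 ± 43.7 CPM under terbinafine, 39.2 ± 19.8 CPM under miglustat, 31.9 ± 6.94 CPM under BAY2402234, 105 ± 17.9 CPM under dhod-1 RNAi and 137 ± 10.1 CPM under batch 1 DMSO (SD, n = 4 each). It lay at 86.0 to 117 CPM under brequinar, and the brequinar and dhod-1 RNAi libraries all lay below the DMSO libraries for this gene, while the members' summed CPM in both averaged above DMSO with overlapping libraries. In batch 2 it averaged 297 ± 16.51 CPM under doxycycline, 531 ± 79.1 CPM under teriflunomide and 106 ± 43.7 CPM under batch 2 DMSO (SD, n = 4 each). Of the genes ranked within groups, F22E5.1 and nhr-137 averaged lower under teriflunomide than under batch 2 DMSO, where 9 members rose. F22E5.1 stood at 0.50 ± 0.245 and 1.27 ± 0.672 CPM, and nhr-137 at 2.37 ± 0.62 and 6.44 ± 2.31 CPM (SD, n = 4 each). The other genes of that ranking averaged higher under teriflunomide.

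The transcript of hsf-1, the regulator of the members, did not rise in any of the 7 comparisons with DMSO. It fell under doxycycline by 2.20 on the log2 scale (SE 0.09, edgeR adjusted p = 3.59e-10), where 7 members rose, and under dhod-1 RNAi by 0.25 (SE 0.08, edgeR adjusted p = 0.0113). With it were listed hsb-1, ddl-1 and ddl-2, which encode HSF-1 binding proteins. Of these 4 genes, 4 fell under doxycycline (hsb-1 by -1.41 and ddl-1 by -2.10), 2 under dhod-1 RNAi (ddl-2 by -0.39), and 1 each under BAY2402234 (hsb-1, -0.26) and teriflunomide (hsb-1, -0.24). None passed under terbinafine, miglustat or brequinar, and DESeq2 called 0 of the 4 under teriflunomide. The doxycycline libraries in which these genes fell are those with 0.0766% oocyte and germ line marker counts, against 0.901% under DMSO, which holds for the constitutive chaperones and sip-1 too; the part of these markers in the result was not tested.

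The constitutive cytosolic chaperones, such as hsp-1, hsp-110 and the CCT chaperonin subunits, were tested in the same fits. Of 22 such genes, 22 fell under doxycycline (chn-1 by -1.52, bag-1 by -1.47 and cct-6 by -0.97), with a median of -0.68. With the stricter filter 18 fell and 1 rose, with a median of -0.26. Under teriflunomide 1 rose (hsp-1, 0.30) and 1 fell (cct-6, -0.19), and DESeq2 called 0. Under BAY2402234 22 fell (median -0.69) and under dhod-1 RNAi 20 (median -0.46), among them cct-1 by -0.62. Under terbinafine, miglustat and brequinar 0 passed, and DESeq2 called 1 under miglustat. The miglustat median was -0.17 for these 22 genes and -2.30 for the 11 inducible rows. Those rows are taken to have been picked on their low miglustat values, so nothing is read from this difference.

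Other small heat shock genes, 9 of 10 of which were tested, moved in mixed directions. Under doxycycline 4 rose and 3 fell, with sip-1, a small heat shock gene of the germ line and embryo, at -5.09 and hsp-43 at 1.74. Under teriflunomide 2 rose and 2 fell, with ZK1128.7 at 0.86, hsp-12.2 at 0.72 and F08H9.3 at -3.45. Under dhod-1 RNAi 3 rose (F08H9.3 by 2.38 and hsp-43 by 1.02) and 4 fell (hsp-12.2 by -1.52). Brequinar lowered 3 of them, ZK1128.7 by -0.72, hsp-12.2 by -1.17 and hsp-25 by -0.31, and BAY2402234 raised 4 and lowered 1.

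Chaperones of other compartments were counted beside them: hsp-3 and hsp-4, the BiP genes of the endoplasmic reticulum, and hsp-6 and hsp-60 of mitochondria. Of these 4, 4 rose under teriflunomide (hsp-3 by 0.63, hsp-4 by 0.96 and hsp-6 by 0.51) and 2 under doxycycline (hsp-3 by 0.95 and hsp-6 by 0.67). Under dhod-1 RNAi hsp-3 rose by 1.12 among 2 rises and 2 falls, under brequinar hsp-4 rose by 0.50, and under BAY2402234 3 fell. None passed under terbinafine or miglustat.

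**Figure D5:**
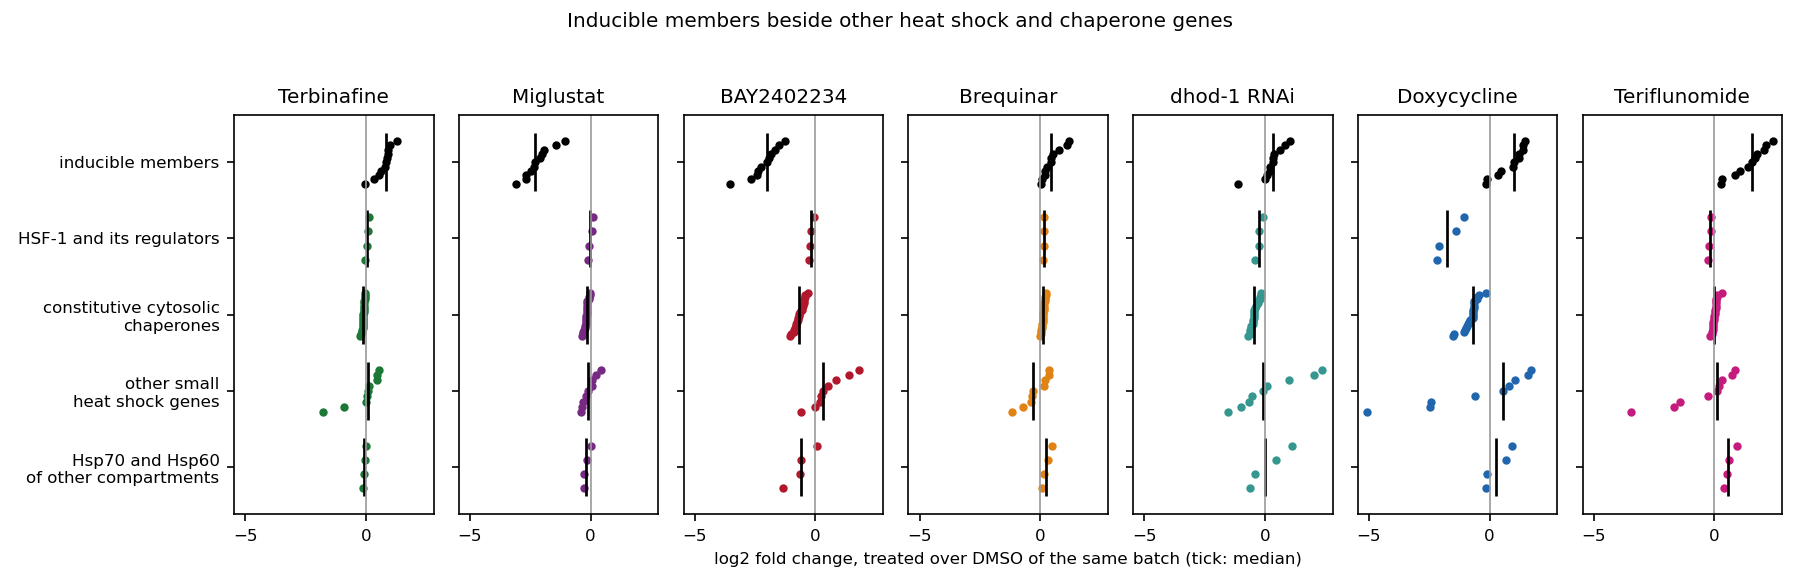
Log2 fold changes of the 11 heat shock rows (black) and of the genes of 4 chaperone lists in each of the 7 comparisons with DMSO; points are genes and ticks are list medians. Under miglustat the inducible rows have a median of -2.30 while the 22 constitutive cytosolic chaperones have one of -0.17, and under doxycycline the medians are 1.03 and -0.68, the second of them -0.26 with a stricter filter on low counts. The inducible rows are taken to have been picked on their miglustat and BAY2402234 values, so nothing is read from the contrast in those panels.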

How the data were processed

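The authors deposited raw counts per gene for 36 libraries, used here as they stand. Per the submitters' processing notes, the tools were FastQC, STAR 2.7.3a and DESeq2 1.40.2, and the build was WBcel235. Sequencing was on a BGISEQ-500, per the labels' protocols. The counting tool, its use of strand and the annotation release are not given in the sources used here. Gene names and coordinates came from the reference annotation.

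The members and gene lists were chosen with earlier results of these data known. Genes were kept by filterByExpr (minimum count 10), scaled by TMM and fitted per batch (15142 and 15695 genes) with edgeR 4.0.16 in R 4.3.3, by the quasi-likelihood F test with Benjamini-Hochberg adjustment over all genes and a threshold of 0.05. All groups of a batch shared a fit with no replicate term. SE is the log2 fold change over the square root of F. DESeq2 1.42.0 was an alternative. Other alternatives were DESeq2 size factors in edgeR, no filter, a stricter filter (10 CPM in 4 libraries), only the groups compared, a replicate block, related copies summed (hsp-16.1 with hsp-16.2, hsp-16.41 with hsp-16.48, F44E5.4 with F44E5.5) and each library left out. CPM was computed from each library's total count. The depth of 19253276 to 20455600 counts limits mostly the rows of a few counts. The procedure was tested on simulated counts. Replicates are biological per the labels, which do not describe them further.

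Named were all members, and of each list at most 3 genes per comparison, those of smallest p. The overlapping genes uggt-2 and F52E1.14 and the ratios were chosen after their values were seen. Likeness was Pearson's r with the members' average over genes that passed in both batches.

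Same-numbered replicates were checked for pairing by correlating deviations from group means. For brequinar against dhod-1 RNAi all 4 correlations were above 0.1 (0.13, 0.399, 0.252 and 0.474), and in the other comparisons at least 1 was not. The dhod-1 RNAi libraries that best matched brequinar replicates 1, 2, 3 and 4 were replicates 2, 1, 4 and 4. Pairing by number was thus not shown there either.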

Additional observations from a re-analysis of the deposited data

Results flagged for a closer look

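Of 99 sets of 4 libraries (11 rows in 9 groups), 6 held a library whose gap to its nearest neighbour exceeded Dixon's 95% critical value times the range; chance flags about 1 set in 20. In batch 2 DMSO, replicate 1 stood at 26.0 CPM for hsp-16.41 (others 14.0 to 15.5 CPM), at 105 CPM for hsp-16.48 (T27E4.3; others 47.3 to 54.9 CPM) and at 51.03 CPM for unc-23 (others 25.0 to 27.97 CPM). The same library held 0.0644% sperm marker counts, against 0.00807% to 0.00963% in the other 3. Its share lay within the ranges of the doxycycline (0.046% to 0.079%) and teriflunomide libraries (0.0481% to 0.0665%). The part of these markers in the result was not tested. Replicate 3 of batch 2 DMSO stood at 80.3 CPM for hsp-17, with the others at 31.8 to 38.7 CPM. In batch 1 DMSO, replicate 2 stood at 4.50 CPM for F44E5.5, with the others at 2.27 to 2.57 CPM. Terbinafine replicate 4 stood at 1.95 CPM for hsp-16.48 (T27E4.9), with the others at 1.41 to 1.46 CPM.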

How the results depend on the processing

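Leaving out each library in turn gave 0 to 3 member calls for terbinafine, 8 to 11 for miglustat, 11 for BAY2402234, 1 to 2 for brequinar, 2 to 4 for dhod-1 RNAi, 7 to 8 for doxycycline and 8 to 9 for teriflunomide. It gave 0 for terbinafine against brequinar, 2 to 5 for terbinafine and 2 to 3 for brequinar against dhod-1 RNAi, and 4 to 7 for doxycycline against teriflunomide. Throughout this section the miglustat and BAY2402234 counts belong to the comparisons taken to have picked the genes, and nothing is read from them. The stricter filter removes low rows and gave 6 for miglustat, 6 for BAY2402234, 0 for brequinar, 5 for teriflunomide and 2 for doxycycline against teriflunomide. In the last 2 comparisons rows it kept also lost calls, hsp-70 under teriflunomide and hsp-16.2, hsp-16.41 and T27E4.3 in the direct comparison. It moved the median of the genes in both fits by 0.43 for doxycycline, 0.20 for BAY2402234 and 0.10 for dhod-1 RNAi against DMSO. The share of calls that were higher, 73.7% for miglustat, 31.6% for BAY2402234 and 36.2% for doxycycline against teriflunomide among those genes, became 59.4%, 65.6% and 48%. The fit of only the 2 groups gave 3 for miglustat, and the cause was not tested. Without dhod-1 RNAi libraries 3 and 4, an alternative added after seeing the data, dhod-1 RNAi against DMSO, terbinafine against it and brequinar against it had 1 call each. DESeq2 called 1 other small heat shock gene under terbinafine, 1 constitutive chaperone under miglustat and 0 under teriflunomide, and 0 of the HSF-1 list under teriflunomide. The replicate block gave 0, 11, 11, 2, 3, 8 and 9 calls in the order of the 7 treatments above. For brequinar against dhod-1 RNAi it gave 3 and changed no call.

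Signs that turned were of rows that passed in neither setting. For hsp-16.2 under dhod-1 RNAi the difference was 0.12 with the stricter filter and 0.016 with only the 2 groups. Without dhod-1 RNAi libraries 3 and 4, T27E4.2 stood at -0.16, hsp-16.41 at -0.19, T27E4.3 at -0.11 and unc-23 at -0.26. F44E5.4 under doxycycline stood at 0.28 with the stricter filter. With a library left out, ranges were -0.16 to 0.13 for unc-23 under terbinafine, -0.14 to 0.43 for hsp-16.2 and -0.055 to 0.24 for unc-23 under brequinar, and -0.10 to 0.33 (T27E4.2), -0.19 to 0.37 (hsp-16.2) and -0.062 to 0.24 (unc-23) under dhod-1 RNAi. Under doxycycline they were -0.29 to 0.056 for F44E5.4 and -0.25 to 0.050 for F44E5.5. Of the other single values with all libraries in the fit or the 2 groups alone, 517 kept their verdict, 19 lost and 3 gained a call. The 517 include the correlations of the genes named for likeness, recomputed under another setting, to which no threshold applies.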

Other observations

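The ratio of hsp-16.2 to hsp-16.41 counts differed between the solvent controls of the batches, at 0.561 to 0.975 in the batch 2 DMSO libraries and 1.15 to 1.61 in the batch 1 DMSO libraries. Summed hsp-16 over summed F44E5 counts lay at 4.48 to 8.545 in batch 2 DMSO and 12.4 to 14.8 in batch 1 DMSO. hsp-70 over summed F44E5 counts lay at 0.679 to 2.13 and 2.63 to 5.10. For these 2 ratios the doxycycline averages, 14.0 and 4.19, lay near those of batch 1 DMSO, 13.7 and 4.16. Batch and control group cannot be told apart here. The gene on the strand opposite unc-23, T19A5.3, overlaps it by 93 bases of exon and fell by 2.73 on the log2 scale under teriflunomide (edgeR adjusted p = 0.00525), while unc-23 rose by 0.85; T19A5.3 was looked at after its values were seen.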
